A study of Mus musculus with 60 samples.

Results

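Tyrosine catabolism was followed through its 5 enzymes, Tat, Hpd, Hgd, Gstz1 and Fah, in mouse cholangiocyte-derived liver organoids. The genes were chosen by symbol, and each symbol was matched through its Ensembl identifier to the 3 gene count tables, one for each RNA-seq experiment. Of the 5 genes, 4 had a row in at least one table (Fah, Gstz1, Tat and Hgd), and Hpd had none. The tables listed 23440 genes for the culture experiment, 23068 for the passage experiment and 28773 for the single organoids.

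All organoids were grown from hepatic ducts of C57BL/6N mice in HepatiCult medium and were started in Matrigel domes. In the culture experiment, 3 cultures from 3-month-old mice, pooled from 2, 4 and 3 animals, were kept in domes or moved as fragments into a shaken suspension with dilute Matrigel. The labels number these cultures 1 to 3 in each condition and do not give the pool of each number. In the passage experiment, Sets 1, 3 and 4, each from the liver of 1 male mouse, were sequenced in bulk at passage 4 and again at passage 11, with 2 technical replicates each, which were summed. How these bulk passage cultures were grown is not stated in the sources used here. For the single organoids, 42 individual organoids were picked from suspension cultures of Sets 1 to 4, again 1 mouse per set, and the study kept 35 of them: 8 of Set 1, 10 of Set 2, 5 of Set 3 and 12 of Set 4. Set 1 was then at passage 11, Sets 2 and 3 at passage 3 and Set 4 at passage 4. Organoids of one set share the mouse and the culture, so mouse, passage and set cannot be told apart among the single organoids, and a P-value between sets measures the spread among organoids only.

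Library totals were 1776490 to 14761853 counts in the culture experiment, 639086 to 3175147 before summing in the passage experiment and 1059002 to 11175868 in the kept single organoids. The cells carried ductal markers: all 8 genes of the ductal list had a row in every table, with summed levels of 4258 to 6610 CPM in the culture experiment. CPM is the count of a gene per 1e6 counts of its library. Of the 10 hepatocyte markers, Ahsg had no row and Serpina1c had at most 1 count in any table, and Alb lay at 0.239 to 5.96 CPM in the 6 cultures. Others of the list were well measured there, such as Ttr at 189 to 786 CPM and Ambp at 113 to 608 CPM, and the list summed to 412 to 1662 CPM. Endothelial and mesenchymal markers were near 0 in all libraries, with summed levels of at most 2.62 and 0.722 CPM, respectively. In bulk cultures, fewer cells that express a gene and less of its RNA per cell cannot be told apart.

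Tyrosine is broken down in the liver mainly by hepatocytes. Tyrosine aminotransferase (Tat) removes the amino group, hydroxyphenylpyruvate dioxygenase (Hpd) makes homogentisate, homogentisate dioxygenase (Hgd) opens its ring, maleylacetoacetate isomerase (Gstz1) turns the product into fumarylacetoacetate, and fumarylacetoacetate hydrolase (Fah) splits that into fumarate and acetoacetate. Inherited loss of Fah causes hereditary tyrosinaemia with liver failure, and mice without Fah are used as hosts that transplanted hepatocytes can repopulate. Biliary cells are not known as a main site of this pathway, and Fah is often used as a hepatocyte marker in liver organoids.

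In the GRCm38 annotation, Tat lies on the plus strand at chr8:109990437-109999803, Hpd on the minus strand at chr5:123171807-123182727, Hgd on the plus strand at chr16:37580153-37632020, Gstz1 on the plus strand at chr12:87147165-87164723 and Fah on the minus strand at chr7:84585159-84606722. All are protein coding. Fah and Tat overlap no other gene. Gstz1 shares 465 of its exon bases with Pomt2 on the opposite strand, and none of them lie near its 3′ end, where 3′-end reads fall.

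The promoters of the 5 genes are shown because 2 of the genes were measured in every library and 3 were at or near 0. Each is the RefSeq sequence of GRCm38.p6 from 250 bases before to 50 bases after the start that RefSeq gives, read 5′ to 3′ on the gene's strand, with CG dinucleotides in capitals.
Tat: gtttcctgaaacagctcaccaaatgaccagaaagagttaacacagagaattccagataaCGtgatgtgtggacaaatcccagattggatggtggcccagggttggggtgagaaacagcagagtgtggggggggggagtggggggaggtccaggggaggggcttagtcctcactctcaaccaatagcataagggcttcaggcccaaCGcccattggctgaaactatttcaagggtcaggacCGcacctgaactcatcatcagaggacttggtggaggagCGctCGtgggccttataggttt
Hpd: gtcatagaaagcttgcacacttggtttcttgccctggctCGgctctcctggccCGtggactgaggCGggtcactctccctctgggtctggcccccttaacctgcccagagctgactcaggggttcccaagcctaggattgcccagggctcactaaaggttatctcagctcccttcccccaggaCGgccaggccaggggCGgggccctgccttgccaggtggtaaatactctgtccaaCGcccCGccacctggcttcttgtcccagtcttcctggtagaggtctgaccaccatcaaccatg
Hgd: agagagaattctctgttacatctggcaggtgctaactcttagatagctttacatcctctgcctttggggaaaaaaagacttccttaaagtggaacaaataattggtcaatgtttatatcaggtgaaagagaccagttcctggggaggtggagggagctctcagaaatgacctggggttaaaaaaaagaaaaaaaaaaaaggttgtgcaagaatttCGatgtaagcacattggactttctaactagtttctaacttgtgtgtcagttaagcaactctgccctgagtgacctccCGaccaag
Gstz1: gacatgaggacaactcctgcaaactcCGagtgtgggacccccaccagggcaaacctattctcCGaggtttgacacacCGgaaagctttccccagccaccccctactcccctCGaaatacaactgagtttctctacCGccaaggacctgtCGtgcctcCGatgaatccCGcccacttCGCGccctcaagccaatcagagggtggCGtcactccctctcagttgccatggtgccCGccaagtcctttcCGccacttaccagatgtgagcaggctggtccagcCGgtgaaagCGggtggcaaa
Fah: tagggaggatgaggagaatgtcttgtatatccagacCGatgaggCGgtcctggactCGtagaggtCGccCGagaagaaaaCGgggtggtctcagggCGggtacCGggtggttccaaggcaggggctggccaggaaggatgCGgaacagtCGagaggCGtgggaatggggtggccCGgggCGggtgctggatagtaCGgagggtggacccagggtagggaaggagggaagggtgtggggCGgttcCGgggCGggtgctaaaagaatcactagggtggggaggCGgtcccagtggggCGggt

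These windows lie at chr8:109990186-109990485 for Tat, chr5:123182674-123182973 for Hpd, chr16:37579903-37580202 for Hgd, chr12:87146915-87147214 for Gstz1 and chr7:84605893-84606192 for Fah. The RefSeq start of Fah lies 780 bases inside the gene as annotated above, whose extent is set by 1 of 5 transcripts that starts further upstream. The starts of 2 of these transcripts lie within the printed Fah window. For the other genes the first RefSeq start lies within 4 bases of the start of the gene given above. The Fah window held 19 CG dinucleotides, a number reached by 28.1% of the 32851 promoters of the same length, and the Gstz1 window held 15, reached by 34.6%. The median promoter held 7. The Hpd window held 7 CG, the Tat window 5 and the Hgd window 2. Letters GGGCGG, searched on both strands, were found 5 times in the Fah window and once each in those of Gstz1 and Hpd, against 35.7% of all promoters with at least 1 match. Letters TATAAA, also searched on both strands, were found only in the Hgd window among the 5, against 13.6% of all promoters. A match of letters is a description and not a bound site. RefSeq gives Gstz1 a second start, whose window held 3 CG.

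The first steps of the pathway were not detected, or only as stray counts. Hpd had no row in any of the 3 tables. These tables hold no row with 0 counts throughout, so a gene without a count would not be listed. A count of 0 allows up to 0.0778 CPM over the 6 cultures together, 0.115 CPM over the passage libraries and 0.0276 CPM over the 35 kept single organoids. Hgd had no row in the culture and passage tables and 3 counts in 108603740 over the kept single organoids, 1 count in each of 3 organoids of Sets 1 and 2. Tat had 2 counts in the 6 cultures, 3 in the passage experiment and 1 in the kept single organoids. No Tat or Hgd value exceeded 1 count in a library, so neither gene could be compared between conditions at this depth. These limits cover counting error only.

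The last enzymes of the pathway were measured in every library. Over the kept single organoids, Fah had 1196 counts and Gstz1 2380, with at least 7 Fah counts in each of the 35. The Fah level, as the mean CPM ± SD over cultures or organoids, was 3.59 ± 1.83 at passage 4, 6.35 ± 5.36 in domes, 7.61 ± 1.53 at passage 11, 9.44 ± 2.84 in Set 4, 11.0 ± 4.47 in Set 1, 12.6 ± 2.49 in Set 3, 18.0 ± 8.99 in Set 2 and 25.3 ± 6.45 in suspension. Each neighbouring pair in this order overlapped in its range. The 3 tables were made separately, so tests were run only within a table.

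**Figure D1:**
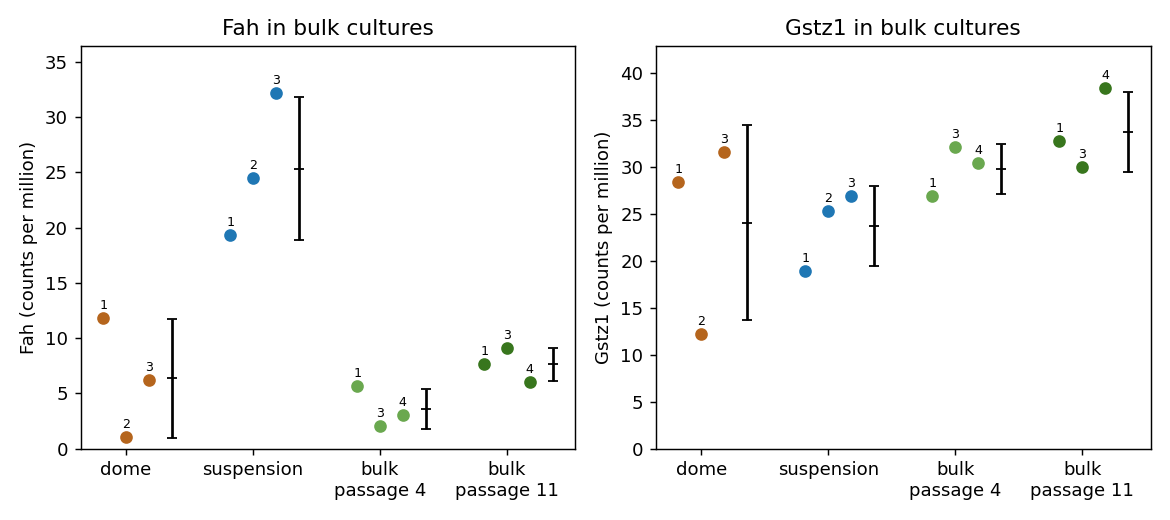
Levels of Fah (left) and Gstz1 (right) in CPM in each bulk culture, labelled with its replicate or set number, for dome, suspension, passage 4 and passage 11. Bars are mean ± SD of 3 cultures. Fah lies at 1.06 to 11.8 in domes and 19.4 to 32.2 in suspension, without overlap, while Gstz1 overlaps between the groups of both comparisons.

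Fah was lower in domes than in suspension. It had 174, 2 and 11 counts in domes 1 to 3, which is 11.8, 1.06 and 6.19 CPM, and 81, 94 and 389 counts in suspensions 1 to 3, which is 19.4, 24.5 and 32.2 CPM. The highest dome lay below the lowest suspension culture. Fah, the hydrolase of the last step, fell by 1.37 on the log2 scale in domes (SE 0.44, adj. P-value = 0.0416, edgeR quasi-likelihood test adjusted over 12699 genes), against 29.8% of all genes called in either direction and 14.7% called lower in domes. The median log2 fold-change of all genes tested was −0.04.

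The Fah call rested on few counts and on single cultures. Dome 2 had 2 counts, below the 1.59 CPM that a count of 0 allows in it. The call was lost without dome 3 (log2 fold-change −1.22, adj. P-value = 0.0991), suspension 1 (−1.55, 0.0656), suspension 2 (−1.41, 0.0901) or suspension 3 (−1.25, 0.137), and the change was −2.46 without dome 1, each by the edgeR test with Benjamini-Hochberg adjustment. Fah was lower in domes in each of these fits. The edgeR estimate of the biological coefficient of variation was 0.370 for Fah, against 0.241 for genes of its level.

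Gstz1, the isomerase directly before Fah, was not called. It had 419, 23 and 56 counts in the domes, which is 28.4, 12.2 and 31.5 CPM, and 79, 97 and 325 counts in suspension, which is 18.9, 25.3 and 26.9 CPM. The groups overlapped, and the estimated log2 difference was 0.40 (SE 0.26, adj. P-value = 0.275, edgeR). Gstz1 depended on the scaling: without normalization factors its log2 fold-change was 0.03 and that of Fah −1.78 (adj. P-value = 0.0183, edgeR), while the median of all genes moved from −0.04 to −0.42 and the share of called genes that were higher in domes from 50.5% to 21.8%.

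The ratio of Fah to Gstz1 counts within a library does not depend on this scaling. It was 0.415, 0.087 and 0.196 in domes and 1.03, 0.969 and 1.20 in suspension, again without overlap. The mean difference was −2.46 on the log2 scale (exact two-sided permutation test, P = 0.1, the smallest that 3 against 3 can give). The ratio compares groups and does not rank the enzymes, as the counts were not taken per length.

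Genes around the pathway were described by lists chosen by function. Over all genes, 15% were called higher and 14.7% lower in domes. Of 8 tested genes around the cofactor tetrahydrobiopterin, 2 rose in domes and none fell, with a median log2 fold-change of 0.41: Gch1, the first enzyme of cofactor synthesis (1.11, SE 0.25, adj. P-value = 0.00982, edgeR), and Pcbd2, a cofactor dehydratase (0.95, SE 0.17, adj. P-value = 0.00439, edgeR). Of 7 tested aminotransferases and relatives of Hpd and Fah, 3 rose in domes and none fell, with a median of 0.38. Kyat1, an aminotransferase of kynurenine and other amino acids, lay at 13.8 to 28.7 CPM in domes and 5.73 to 7.30 CPM in suspension, and changed by 1.98 on the log2 scale (SE 0.27, adj. P-value = 0.0015, edgeR). Fahd2a, a relative of Fah by its protein family, lay at 19.1 to 21.1 CPM in domes and 9.12 to 11.9 CPM in suspension, a log2 fold-change of 1.30. The third was Got1, the cytosolic aspartate aminotransferase, at 0.85. Hpdl, the relative of Hpd, was at −0.49 and not called (adj. P-value = 0.219, edgeR).

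Downstream of Fah, 1 of 8 tested genes that handle fumarate or acetoacetate rose in domes, close to the 15% of all genes. Their median log2 fold-change was 0.40. The called gene was Aacs, which activates acetoacetate for lipid synthesis (1.00, SE 0.32, adj. P-value = 0.0406, edgeR). Fh1, the fumarase, was at 0.01. Among genes for other fates of tyrosine, Ddc, the aromatic amino acid decarboxylase (2.37), and Maoa, a monoamine oxidase (1.46), rose in domes. None of 4 tested transporters was called. Th and Tyr, which start catecholamine and melanin synthesis, had no row in the culture table. The calls of Kyat1, Fahd2a, Pcbd2 and Ddc remained when each of the 6 cultures was left out in turn, that of Gch1 was lost in 2 of the 6 fits, and those of Got1, Aacs and Maoa in 4.

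Other cell markers also differed between the culture conditions, where 15% of all genes were called higher in domes. Of 8 ductal markers, Krt19 and Krt7 rose in domes and Spp1 fell. Krt19 lay at 2329 to 4609 CPM in domes and 1089 to 1281 CPM in suspension, and Spp1 at 503 to 1577 CPM and 3242 to 3449 CPM. All 4 proliferation markers fell in domes, with summed levels of 51.4 to 153 CPM against 335 to 423 CPM in suspension. Of 8 tested hepatocyte markers, 4 were called higher in domes, Apoa1 by 4.94, Fgb by 2.26, Ambp by 2.08 and Apoa2 by 1.70 on the log2 scale, and none was called lower. Apob was not called and had a lower mean in domes, at 1.06 to 5.96 CPM against 5.73 to 16.7 CPM in suspension. Apoa1 lay at 141, 3.18 and 12.4 CPM in domes 1 to 3 and its change was 2.05 without dome 1, while its call was lost without suspension 3 (adj. P-value = 0.0507, edgeR) and those of Fgb and Apoa2 in 5 of the 6 fits. The summed level of the list overlapped, at 547 to 1662 CPM in domes and 412 to 891 CPM in suspension. Of 7 macrophage markers, 4 had a row, with no row for Clec4f and Cd5l and 1 count of Adgre1, and these summed to 6.16 to 67.4 CPM in domes and 3.82 to 10.2 CPM in suspension. Of these, Cd68 was called higher in domes (3.06, adj. P-value = 0.0223, edgeR), at 5.35, 65.2 and 28.1 CPM against 3.11 to 8.86 CPM, a call that was lost in 3 of the 6 fits that left out 1 culture. Csf1r, the only other macrophage marker tested, was not called, at 0.474 to 1.69 CPM in domes and 0.478 to 3.89 CPM in suspension. The part of these in the Fah result was not tested.

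**Figure D2:**
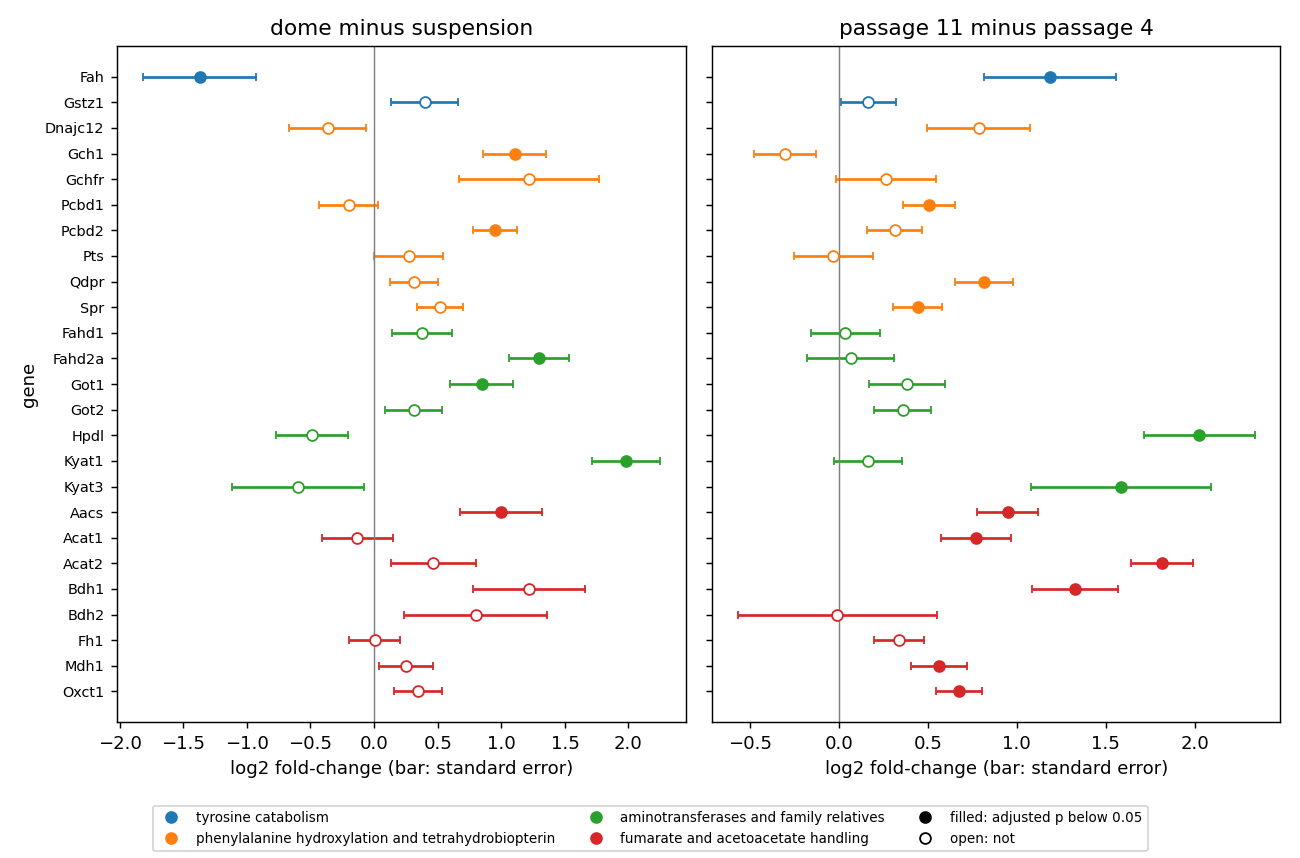
Log2 fold-change (x axis) of the tested genes in and around tyrosine catabolism (y axis) for dome minus suspension (left) and passage 11 minus passage 4 (right). Bars are standard errors, colours are the gene lists and filled points have an adj. P-value below 0.05. Fah lies at −1.37 on the left and 1.19 on the right, and Gstz1 is open in both.

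Fah was higher at passage 11 than at passage 4. It had 22, 11 and 17 counts at passage 4 in Sets 1, 3 and 4, which is 5.62, 2.08 and 3.07 CPM, and 37, 45 and 9 counts at passage 11, which is 7.67, 9.11 and 6.06 CPM. The lowest culture of passage 11 lay above the highest of passage 4, and the ratio of passage 11 to passage 4 was 1.36 in Set 1, 4.39 in Set 3 and 1.97 in Set 4. The log2 fold-change was 1.19 (SE 0.37, adj. P-value = 0.0468, edgeR quasi-likelihood test adjusted over 13738 genes), against 20.3% of all genes called and 10.1% called higher at passage 11. The median of all genes was −0.05.

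The technical replicates of Sets 1 and 3 did not overlap between passages, whereas those of Set 4 did: its passage 11 replicates held 7 and 2 Fah counts, at 8.26 and 3.13 CPM, and its passage 4 replicates lay at 2.52 and 3.82 CPM. The call was lost without passage 11 of Set 1 (log2 fold-change 1.16, adj. P-value = 0.104) or Set 3 (1.07, 0.142) and without passage 4 of Set 3 (0.90, 0.157) or Set 4 (1.07, 0.135), each by the edgeR test with Benjamini-Hochberg adjustment. It was also lost after thinning every library to an equal total (0.76, adj. P-value = 0.248, edgeR), where the change was smaller by more than 1.5 times.

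Gstz1 lay at 26.8, 32.1 and 30.4 CPM at passage 4 and at 32.7, 30.0 and 38.3 CPM at passage 11 in Sets 1, 3 and 4. The passages overlapped, and the estimated log2 difference was 0.16 (SE 0.16, adj. P-value = 0.498, edgeR). The ratio of Fah to Gstz1 counts was 0.0647 to 0.210 at passage 4 and 0.158 to 0.304 at passage 11, with a mean log2 difference of 1.01 (exact two-sided permutation test, P = 0.2).

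Of 8 tested genes that handle fumarate and acetoacetate, the products of Fah, 6 rose with passage and none fell, against 10.1% of all genes called higher and 10.1% called lower, with a median log2 fold-change of 0.72. Acat2, a thiolase that uses acetoacetyl-CoA, lay at 40.4 to 64.7 CPM at passage 4 and 182 to 203 CPM at passage 11 (1.82, SE 0.18, adj. P-value = 0.000375, edgeR). Bdh1, which converts acetoacetate to hydroxybutyrate, lay at 6.61 to 12.5 CPM and 20.9 to 27.3 CPM (1.33, SE 0.24, adj. P-value = 0.0055, edgeR). Aacs rose by 0.95 and Acat1, the mitochondrial thiolase, by 0.77. The remaining members were Oxct1, which activates ketone bodies (0.68, adj. P-value = 0.00656, edgeR), Mdh1, the cytosolic malate dehydrogenase (0.56, 0.0302), and the uncalled Fh1 (0.33, 0.118) and Bdh2 (−0.01, 0.994).

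Of 7 tested aminotransferases and relatives, 2 rose with passage, against the same 10.1% of all genes, with a median of 0.36. Hpdl lay at 1.81 to 3.83 CPM at passage 4 and 10.2 to 11.9 CPM at passage 11, and rose by 2.03 on the log2 scale (SE 0.31, adj. P-value = 0.00274, edgeR). It held 10 to 15 counts per culture at passage 4. Kyat3, a second kynurenine aminotransferase, was at 1.58 (adj. P-value = 0.0498, edgeR), a call that was lost without any one of the 6 cultures. Of 8 tested genes around the cofactor, 3 rose, again against 10.1%, with a median of 0.38: Qdpr, which recycles the cofactor (0.82, adj. P-value = 0.00782, edgeR), Pcbd1 (0.51, 0.0334) and Spr, the last enzyme of cofactor synthesis (0.44, 0.0491). None of 4 tested genes for other fates of tyrosine was called. Of 4 transporters, Slc3a2, the heavy chain of the large neutral amino acid carriers, fell by 1.25. The calls of Acat2, Bdh1, Aacs, Oxct1, Hpdl, Qdpr and Slc3a2 remained when each culture was left out in turn, those of Acat1 and Mdh1 were lost in 4 of the 6 fits, that of Pcbd1 in 5 and that of Spr in 6.

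The summed proliferation markers lay at 127 to 142 CPM at passage 4 and 277 to 386 CPM at passage 11. Of these, 3 of 4 were called higher, against 10.1% of all genes. In both bulk comparisons, the group with the higher Fah level also had the higher summed proliferation markers. Of 7 tested hepatocyte markers, Apoa1 rose by 4.66 and Ambp fell by 3.74 with passage. Of all genes, 10.1% were called higher and 10.1% lower. Apoa1 lay at 4.97, 87.3 and 1.35 CPM at passage 11 in Sets 1, 3 and 4 and 0.755 to 2.05 CPM at passage 4, and was at 1.58 without passage 11 of Set 3 (adj. P-value = 0.116, edgeR). Its call was also lost without any one passage 4 culture, with lower adj. P-values than that. The summed level lay at 516 to 1041 CPM at passage 4 and 902 to 1303 CPM at passage 11. The part of these in the Fah result was not tested.

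**Figure D3:**
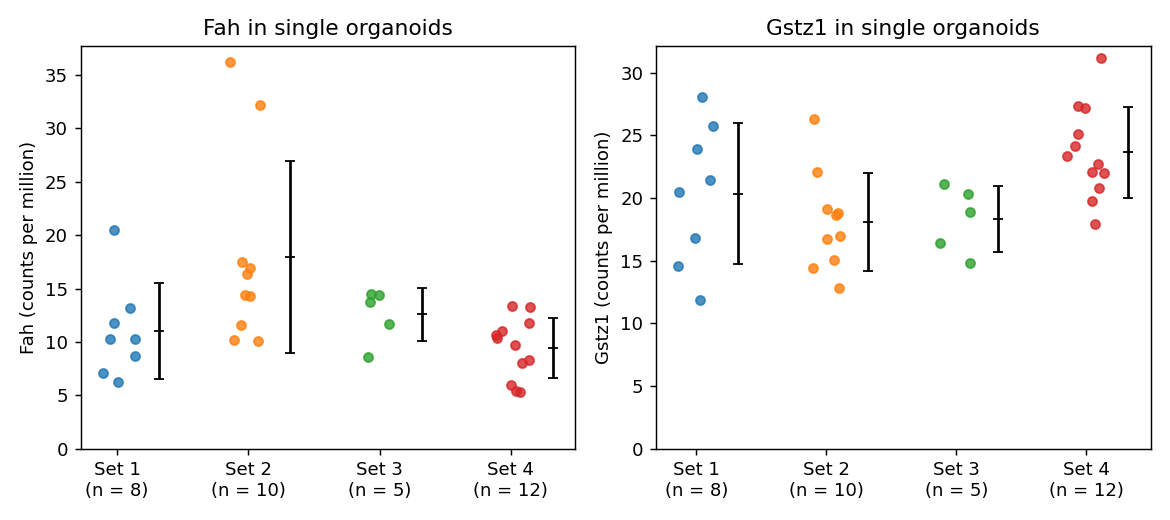
Levels of Fah (left) and Gstz1 (right) in CPM in the 35 kept single organoids of Sets 1 to 4, 1 point per organoid, with mean ± SD per set. In Set 2, 2 organoids lie above 30 for Fah, the other 8 between 10.1 and 17.5, and Gstz1 has no such separate points.

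Among the single organoids, Set 2 had the highest mean and the widest range of Fah. The lowest, median and highest Fah levels were 6.26, 10.3 and 20.5 CPM in Set 1, 10.1, 15.4 and 36.2 CPM in Set 2, 8.60, 13.7 and 14.5 CPM in Set 3, and 5.32, 10.1 and 13.4 CPM in Set 4. All sets overlapped. The variance of Fah counts was 8.27 times that of counting alone in Set 2, 5.40 times in Set 1, 3.19 times in Set 4 and 1.52 times in Set 3. The study singled out Fah in Set 2 from these same organoids, so its spread there is not independent evidence.

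Of the 6 comparisons between sets, 1 was called for Fah. It was higher in Set 2 than in Set 4 by 0.81 on the log2 scale (SE 0.23, adj. P-value = 0.0134, edgeR quasi-likelihood test adjusted over 13927 genes and all 6 comparisons), against 12.4% of all genes called and 7.02% called higher and 5.35% called lower in Set 2. The difference between Sets 1 and 2 was −0.71 (SE 0.25, adj. P-value = 0.0561, edgeR), where 14.3% of all genes were called (7.08% higher and 7.19% lower in Set 1), and the other 4 differences lay between −0.18 and 0.53, with adj. P-values of 0.243 to 0.825. In these, 9.43% of all genes were called between Sets 1 and 3 (4.3% higher and 5.13% lower in Set 1), 20% between Sets 1 and 4 (12.4% higher and 7.6% lower in Set 1), 3.93% between Sets 2 and 3 (2.05% higher and 1.88% lower in Set 2) and 11.6% between Sets 3 and 4 (7.89% higher and 3.67% lower in Set 3). Without Set 2 organoids 2 and 6, at 36.2 and 32.2 CPM, the difference between Sets 2 and 4 was 0.42 (adj. P-value = 0.15, edgeR), a fit chosen after their values were seen.

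Gstz1 was called in none of the 6 comparisons. Its lowest, median and highest levels were 11.8, 21.0 and 28.1 CPM in Set 1, 12.8, 17.8 and 26.3 CPM in Set 2, 14.8, 18.9 and 21.1 CPM in Set 3, and 17.9, 23.0 and 31.2 CPM in Set 4. The largest differences were those of Set 3 minus Set 4 (−0.47, adj. P-value = 0.12) and Set 2 minus Set 4 (−0.44, adj. P-value = 0.0648), by the edgeR test. Of the other 4, the lowest unadjusted P-value was 0.169 for Set 1 minus Set 2. Between Sets 2 and 4 the estimates for Fah and Gstz1 thus had opposite signs, with that of Gstz1 not called. The median ratio of Fah to Gstz1 counts was 0.508 in Set 1, 0.879 in Set 2, 0.714 in Set 3 and 0.429 in Set 4, and reached 2.14 and 2.24 in Set 2 organoids 2 and 6.

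Around the pathway, 4 genes were called higher and 1, Maob, lower in Set 1, the only set at passage 11, than in each other set. They were among 8 tested cofactor genes, 7 aminotransferases and relatives, 7 fumarate and acetoacetate genes, 4 other-fate genes and 4 transporters. Of all genes, 7.08%, 4.3% and 12.4% were called higher in Set 1 than in Sets 2, 3 and 4. The shares called lower were 7.19%, 5.13% and 7.6%. The share called against each of these sets at once was not taken. Fahd1, a relative of Fah by its protein family, had a mean of 29.7 ± 8.52 CPM in Set 1 (n = 8) and 13.2 to 18.6 CPM in the other sets, and was called higher in Set 1 against each, by 0.86, 0.79 and 1.16 on the log2 scale for Sets 2, 3 and 4. Oxct1 was higher in Set 1 by 0.75, 0.58 and 0.72, Dnajc12, a chaperone of the aromatic amino acid hydroxylases, by 0.95, 1.58 and 0.64, and Ddc by 2.53, 2.22 and 3.42. Maob, a monoamine oxidase, had 1 count in the 8 organoids of Set 1 and 4.59 ± 3.40 CPM in Set 3 (n = 5). In the bulk cultures, Oxct1 was also called higher at passage 11, while Dnajc12 (0.79, adj. P-value = 0.0808), Ddc (1.20, 0.229) and Fahd1 (0.03, 0.925) were not, by the edgeR test. Between Sets 2 and 4, where Fah was called, 1 of 8 cofactor genes (Pcbd2, −0.60), 1 of 4 transporters (Slc3a2, 0.63), none of 7 aminotransferases and relatives and 1 of 7 fumarate and acetoacetate genes (Bdh1, −0.67) were called, against 12.4% of all genes. Between Sets 1 and 2, all 4 tested transporters were called, Slc16a10 (0.81) and Slc43a2 (0.68) higher and Slc3a2 (−0.83) and Slc7a5 (−1.19) lower in Set 1, against 14.3% of all genes. Between Sets 1 and 4, 4 of 7 fumarate and acetoacetate genes were called, Oxct1 and Acat1 (0.54) higher and Bdh1 (−1.03) and Aacs (−0.68) lower in Set 1, against 20% of all genes.

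**Figure D4:**
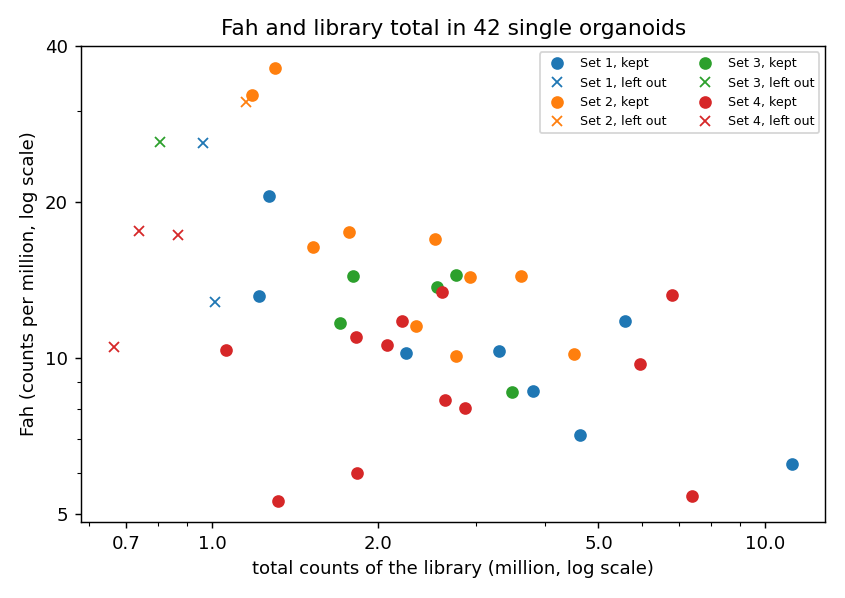
Fah level in CPM (y axis, log scale) against the library total (x axis, log scale) for all 42 single organoids, coloured by set. Dots are the 35 kept organoids and crosses the 7 left out by the study. The organoids above 20 CPM all have totals of at most 1298591 counts.

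The high Fah levels were in small libraries. Set 2 organoids 2 and 6, the highest of the kept organoids, had 47 and 38 Fah counts in totals of 1298591 and 1180937. Set 1 organoid 8, the highest of its set at 20.5 CPM, had 26 counts in 1267964. Low totals did not always go with high Fah: Set 4 organoid 3 had the lowest level, 5.32 CPM, with 7 counts in 1316448. Within Set 2, Pearson's r of log2 Fah with the log2 library total was −0.770 (permutation P = 0.00743, adjusted 0.0719, n = 10) and Spearman's rho −0.661 (adjusted permutation P = 0.262), and r was −0.448 without the 2 organoids farthest from the median total. The r was −0.646 in Set 1 (n = 8, exact permutation P = 0.0841, adjusted 0.395) and 0.278 in Set 4 (n = 12, permutation P = 0.379, adjusted 0.839). The part of depth in the level of Fah was not tested further.

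Fah was compared in the same way with other markers within Sets 1, 2 and 4, in 21 relations adjusted together by Benjamini-Hochberg. Hpd and Hgd were dropped for lack of counts. By Pearson's r over all kept organoids of a set, none passed an adjusted P-value of 0.05. In Set 2, r of Fah with Alb, the main plasma protein made by hepatocytes, was 0.840 (permutation P = 0.00403, adjusted 0.0719, n = 10), rho was 0.952 (adjusted permutation P = 0.00294) and r was 0.906 without organoids 3 and 10, the farthest from the median of Alb. Without organoids 2 and 6, which were high in Fah, r with Alb was 0.870 (exact permutation P = 0.00213, adjusted 0.0448, n = 8) and rho 0.905 (adjusted exact permutation P = 0.0958). These 2 organoids were left out after their Fah values were seen, so these P-values are a description and not a further test. Alb itself lay at only 1.11 to 6.16 CPM. With Epcam, an epithelial marker of ductal cells, r in Set 2 was −0.789 (permutation P = 0.0103, adjusted 0.0719, n = 10) and rho −0.648 (adjusted permutation P = 0.262). The value of r in Set 2 depended on organoids 2 and 6, as it was −0.145 without them. The other ductal and hepatocyte partners gave r in Set 2 of 0.0703 for Krt19 (adjusted permutation P = 0.949) and 0.282 for Hnf4a (0.839). In Sets 1 and 4, r was −0.179 and 0.203 with Krt19 and −0.590 and 0.216 with Hnf4a. In Set 1 and Set 4, r with Alb was −0.0806 and −0.0122 and with Epcam −0.499 and −0.224.

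No relation of Fah with Gstz1 between organoids passed the test: r was −0.321 in Set 1 (n = 8, exact permutation P = 0.437), 0.181 in Set 2 (n = 10, permutation P = 0.608) and 0.178 in Set 4 (n = 12, permutation P = 0.578), with adjusted P-values of 0.839 to 0.851. With Mki67, a proliferation marker, r was −0.0389, −0.554 and −0.0568 in these sets, with adjusted permutation P-values of 0.395 to 0.97.

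Over the 35 kept organoids, with each set centred on its mean, the genes most like Fah among 6136 well-expressed genes were Aurka, a mitotic kinase (r = 0.836), Ftl1, the ferritin light chain (0.833), Lsm4, a splicing factor (0.828), Mir692-2 (0.824) and Ftl1-ps1 (0.815). Ftl1-ps1 is a near copy of Ftl1 that can share its reads. The most opposite were Carnmt1 (−0.747), Pdia3, a disulphide isomerase of the endoplasmic reticulum (−0.708), Ybx1, an RNA-binding protein (−0.704), Rnf11 (−0.704) and Afdn, a junction protein (−0.702). On the same scale, r with Fah was −0.0667 for Gstz1, 0.615 for Spr and 0.527 for Mdh1. The proliferation markers differed in sign, with 0.727 for Cdk1, 0.634 for Ccnb1, −0.178 for Mki67 and −0.195 for Top2a. The points share mouse, library and depth, so these values are a description.

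Bulk values were set beside the single organoids of the same set and passage as a description. The share of all genes with a bulk value outside the range of the single organoids was not taken. Fah in Set 4 at passage 4 was 3.07 CPM in bulk, below the lowest of the 12 single organoids at 5.32 CPM, and in Set 1 at passage 11 it was 7.67 CPM in bulk, within the range of the 8 single organoids. Gstz1 in Set 1 at passage 11 was 32.7 CPM in bulk, above the highest single organoid at 28.1 CPM, and in Set 4 at passage 4 it was 30.4 CPM in bulk, within the range of 17.9 to 31.2 CPM. Per the study's methods, total RNA was extracted from bulk organoids and mRNA from single organoids. The part of this in the values was not tested, and no test was run across tables.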

How the data were processed

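The starting point was 3 tables of integer gene counts, deposited by the authors for 6 dome and suspension cultures, 12 bulk passage libraries and 42 single organoids, all 3′-end libraries. Per the study's methods and the submitters' processing notes, reads were processed with zUMIs, STAR, featureCounts and SAMtools 1.9 on GRCm38 and libraries were down-sampled where sizes varied. No source used here says whether the counts are UMIs or reads, and total counts per library set the precision of each value. The input of single organoid libraries was set by Actb. The study kept 35 organoids, whose libraries passed its quality control and a minimum library size. Those 35 were used here.

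CPM are counts divided by the deposited library total. Fold-changes used TMM factors, filterByExpr with a minimum count of 3 and quasi-likelihood F-tests in edgeR 4.0.16 (R 4.3.3), with Benjamini-Hochberg adjustment over all genes, and over all 6 comparisons between sets, at 0.05. Standard errors came from the F statistic. Correlations used log2 CPM with 0.5 counts added and permutation, exact for up to 8 organoids. The scripts were tested on simulated data. Alternatives used limma 3.58.1 and DESeq2 1.42.0 and are given at the end. The study itself used limma-voom.

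Members and gene lists were chosen with earlier results of these data known. Named genes were the 5 members, up to 4 called genes per list and direction with the largest changes, and the 5 genes most and least like Fah among those with a mean log2 CPM of at least 4. Further genes in the text (Fh1, Bdh2, Oxct1, Mdh1, Ttr, Spr and proliferation markers in the likeness, Hpdl in domes, and genes without counts) were named after their values were seen. The 2 technical replicates of each passage culture differed by more than sampling noise (chi-square per degree of freedom 1.08 to 2.55) and were summed. Cultures were paired by design, as the same pools were grown both ways and the same sets sampled at both passages: the deviations of same-numbered cultures correlated with r of 0.133 to 0.188 between domes and suspension and 0.0283 to 0.098 between passages. Gene positions and overlaps come from a GRCm38 annotation of a later Ensembl release than that of the authors. Nothing says that the numbered organoids of different sets belong together. Values of a few genes of the lists are not reported here.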

Additional observations from a re-analysis of the deposited data

Results flagged for a closer look

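The 7 single organoids that the study left out held counts of both measurable enzymes, above the 3 counts that a count of 0 allows in every one of them. Their Fah levels lay between 10.5 and 31.2 CPM and their Gstz1 levels between 10.8 and 24.9 CPM. Of the 5 highest Fah levels among all 42 organoids, 3 were in these left-out organoids: Set 2 organoid 8 with 31.2 CPM, Set 3 organoid 2 with 26.1 CPM and Set 1 organoid 10 with 26.0 CPM. Their totals were 1152914, 804990 and 962466 counts. The study had filtered its libraries by quality control and a minimum size.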

How the results depend on the processing

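Fah kept its direction in all 14 alternatives of dome against suspension (log2 fold-change −2.46 to −1.04), all 16 of passage 11 against passage 4 (0.76 to 1.62) and all 34 of Set 2 against Set 4 (0.42 to 0.90), but not its call. In domes the adj. P-value was 0.0525 with limma-voom (−1.35), and leaving out 1 culture at a time gave −2.46 to −1.04. For passage it was lost with DESeq2 (1.17, 0.0618), after thinning (0.76, 0.248), with technical replicate 1 only (1.18, 0.0822) or 2 only (1.20, 0.0983) and without normalization factors (1.17, 0.0536), and leaving out 1 culture gave 0.90 to 1.62. Between Sets 2 and 4 it was lost after thinning (0.82, 0.0624) and without Set 2 organoids 2 and 6 (0.42, 0.15), and leaving out 1 organoid gave 0.62 to 0.90. The cause was not tested. The difference between Sets 1 and 2 became called with RLE factors (−0.75, 0.0495), DESeq2 (−0.75, 0.0353), no normalization factors (−0.73, 0.0441), adjustment within the comparison (−0.71, 0.0472) and a block on organoid number (−0.98, 0.00712), and leaving out 1 organoid gave −0.84 to −0.52, called without Set 1 organoid 6 or 8 or Set 2 organoid 3, 7 or 10 (0.0231 to 0.0391). Gstz1 between Sets 2 and 4 became called in a fit of these sets alone (−0.44, 0.0445), and leaving out 1 organoid gave −0.54 to −0.38, called without Set 2 organoid 11 (0.0199) or Set 4 organoid 7 (0.0428). With all 42 organoids, r of Fah passed an adjusted P-value of 0.05 for Epcam in Set 1 (−0.797) and Set 2 (−0.845), Alb in Set 2 (0.836) and library total in Set 2 (−0.802). Alb in Set 2 did so with a prior count of 2 (0.868) and without organoids 2 and 6 (0.870), which were chosen after their Fah values were seen. No result reversed. Results that missed the threshold in both settings were taken as stable whatever their sign.

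With the replicate block, Fah was at −1.49 in domes (adj. P-value = 0.0188, edgeR) and 1.16 with passage (0.0451), and the block changed no call of Fah or Gstz1 in the bulk cultures. For passage the block is the set. For domes and suspensions it is the number, which the labels do not tie to a pool. For the single organoids the block uses only a shared number. Leaving out the organoids of Sets 1, 2 and 4, leaving out both high Set 2 organoids, following Oxct1 and Mdh1 and the fits without normalization factors were added after seeing the data. Over leaving out 1 culture, the genes called ranged from 1893 to 3837 in domes and 1552 to 2244 with passage. Without normalization factors, the share of calls that were higher in Set 1 moved from 45.6% to 35.2% against Set 3. In the smallest passage library, before summing, a count of 0 allows 4.69 CPM.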

Other observations

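Other hepatocyte enzymes of amino acid breakdown were measured unevenly. Of 31 genes listed for this, 26 had a row in the single organoid table and 23 in the culture table. Kmo, Kynu and Haao of tryptophan breakdown, Ftcd of histidine breakdown and Sds of serine breakdown had no row in any table. Cps1, which starts the urea cycle, had 1 count in the kept single organoids and no row elsewhere, Arg1, which ends it, had 2, 2 and 11 counts in the culture, passage and kept single organoid tables, and Otc had 15, 9 and 2. All 15 culture counts of Otc were in dome 1, and 8 of its 9 passage counts were in passage 11 of Set 3. The middle enzymes were readily measured: Ass1, which joins citrulline and aspartate, had 2575, 403 and 670 counts, and Asl, which splits the product into arginine and fumarate, had 2379, 1928 and 6245.

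Of 15 tested genes of this list, 2 rose in domes, Ass1 and Asl, and none fell, a share close to the 15% of all genes called higher, with a median log2 fold-change of −0.04. Ass1 lay at 103 to 220 CPM in domes and 14.1 to 29.7 CPM in suspension (log2 fold-change 3.38, SE 0.47, adj. P-value = 0.0017, edgeR), and Asl at 64.2 to 103 CPM and 40.1 to 55.8 CPM (1.07, SE 0.19, adj. P-value = 0.00432, edgeR). Both calls remained when each culture was left out in turn. With passage, 1 of 15 rose, Ahcy (0.71), and 2 fell, a share close to the 20.3% of all genes called: Amt of glycine cleavage by 2.29 and Cth of cysteine synthesis by 1.56. Cth lay at 74.3 to 126 CPM at passage 4 and 13.5 to 63.6 CPM at passage 11. The calls of Ahcy and Cth were lost in 5 and 4 of the 6 fits that left out 1 culture.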
